A study of Mus musculus with 12 samples.

Results

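Notch signalling genes of mouse granulosa cells are described here across an estrogen receptor beta knockout and an ovulatory stimulus. The set holds 3 receptors (Notch1, Notch2 and Notch3), 3 ligands (Jag1, Jag2 and Dll4) and 4 target genes of the HES and HEY families (Hes1, Hey1, Hey2 and Heyl). All 10 genes were measured, out of 18193 genes on the array, by 19 probe sets that are each annotated to 1 gene. The brightest probe set on average across the 12 arrays stands for each gene, and the others serve as a check. Granulosa cells had been cut by laser from follicles of 3-week-old mice, which the labels call antral in the collection protocol and preovulatory in the design. There were 4 groups of 3 arrays: bERKO with PMSG and hCG, WT with PMSG and hCG, bERKO with PMSG alone and WT with PMSG alone. bERKO mice are estrogen receptor beta (Esr2) knockouts, and the labels do not name the allele. All 4 groups received PMSG, a gonadotropin that acts like follicle-stimulating hormone, and the PMSG groups were collected 48 h after it. Mice of the hCG groups were then given hCG, a stand-in for the luteinizing hormone surge that triggers ovulation, and cells were taken 4 h later. Replicates are labelled as biological; how many mice went into an array was not stated, so p-values measure the spread between these arrays, which may be partly technical.

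Notch receptors sit in the membrane and are switched on by Jagged or Delta-like ligands on a neighbouring cell. Binding exposes the receptor to cleavage by an ADAM protease and by the gamma-secretase complex, and the freed intracellular domain joins the DNA-binding protein RBPJ and a Mastermind coactivator to switch on genes such as those of the HES and HEY repressors. In the mouse ovary, Notch2 is known as a granulosa cell receptor that responds to Jag1, and the pathway is needed for the breakdown of germ cell nests and for early follicle growth. Notch1 and Dll4 are also known from the endothelium of blood vessels, and Notch3 from their mural cells (pericytes and smooth muscle).

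The promoter table of RefSeq (build GRCm38.p6) held 7 of the 10 genes. The 250 bases before the start are shown for the 3 of them whose transcripts rose or fell after hCG in bERKO cells, as described further on, so that the sequence can be set beside the response. Capitals mark matches on either strand to the RBPJ core TGGGAA or its longer form GTGGGAA, to the HES and HEY box CACGCG and to the CRE core TGACG, part of the element bound by the cyclic AMP factor CREB.
Notch3 (chr17:32166891-32167140, minus strand): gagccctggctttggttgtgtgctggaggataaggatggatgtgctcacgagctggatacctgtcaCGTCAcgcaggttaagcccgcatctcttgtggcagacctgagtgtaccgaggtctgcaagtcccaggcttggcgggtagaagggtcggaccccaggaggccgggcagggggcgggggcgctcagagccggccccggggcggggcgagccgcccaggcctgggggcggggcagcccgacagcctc
Jag1 (chr2:137116521-137116770, minus strand): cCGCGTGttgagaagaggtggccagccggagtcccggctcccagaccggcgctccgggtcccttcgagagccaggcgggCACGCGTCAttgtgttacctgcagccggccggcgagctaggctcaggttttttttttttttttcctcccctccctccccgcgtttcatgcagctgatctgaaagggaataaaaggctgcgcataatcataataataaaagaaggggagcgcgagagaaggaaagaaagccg
Hey2 (chr10:30842784-30843033, minus strand): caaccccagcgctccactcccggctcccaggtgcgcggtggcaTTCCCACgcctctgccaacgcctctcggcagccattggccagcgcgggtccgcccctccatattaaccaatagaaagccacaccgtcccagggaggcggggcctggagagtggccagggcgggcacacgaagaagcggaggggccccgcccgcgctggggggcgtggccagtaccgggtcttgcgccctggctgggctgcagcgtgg
Hey2 held 1 match to GTGGGAA, 207 bases before its start, which also contains the shorter RBPJ core. Jag1 held 2 matches to CACGCG, 249 and 171 bases before its start, and 1 to TGACG, 167 bases before it, which overlaps the second CACGCG. Notch3 held 1 match to TGACG, 184 bases before its start. Among all 32851 promoters of the table, windows of the same length held TGGGAA in 21.6%, GTGGGAA in 5.4%, CACGCG in 7.6% and TGACG in 17.8%. Of the other 4 genes in the table, Notch2 held 1 CACGCG at 42 bases, Dll4 held 1 at 195 bases, and Notch1 and Jag2 held none of these motifs. The E box CACGTG (6.0% of promoters) was in none of the 7, and the ERE core GGTCA (35.2% of promoters), part of the element bound by estrogen receptors, was in Dll4 alone, at 47 bases. A match describes letters in this window and is not evidence of binding.

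Levels are given as log2(intensity + 16) after quantile normalization, a scale with a floor of 4, over 3 arrays per group. A difference is a difference of group means on that scale, given with its standard error (SE) from limma; it understates the change of dim genes. An adjusted p under 0.05, over all 18193 genes, counts as passing. Esr2 itself had levels of 8.33, 8.13 and 8.52 in bERKO hCG, 8.67, 9.52 and 8.78 in WT hCG, 8.18, 8.63 and 8.12 in bERKO PMSG, and 10.33, 9.01 and 9.33 in WT PMSG. Its groups did not overlap within either treatment and its genotype difference did not pass in limma (-0.66 with adjusted p = 0.394 after hCG and -1.24 with adjusted p = 0.308 after PMSG); the sources used here do not place its single probe set relative to the disruption, so it checks the labels only partly. Granulosa markers were high on every array, with a mean over 10 genes from 11.80 to 13.01, though Amh was at 4.22 to 6.11. A pair of arrays stood apart by the Gapdh 3'/5' control ratio, a sign of degraded or incompletely copied RNA: bERKO PMSG replicate 3 at 23.74 and WT hCG replicate 1 at 32.16, against 4.72 to 11.19 on the other arrays. The 10 members were also fitted without both arrays, and values are given where Jag1, Hey1 and reversed differences are described. For the other pathway genes and the markers, no values without these arrays are given.

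**Figure D1:**
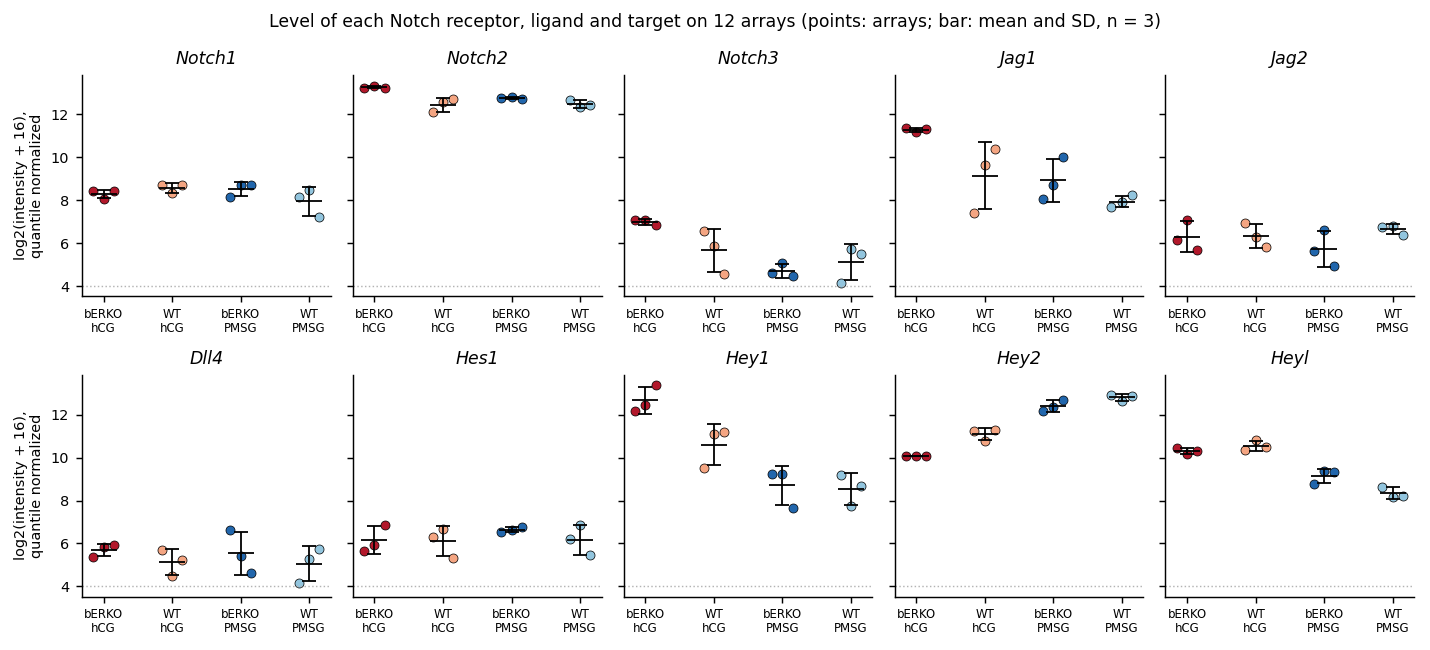
Levels of the 10 genes on the 12 arrays, as log2(intensity + 16) after quantile normalization; each point is an array, in replicate order within a group, bars give the mean and SD of 3 arrays, and the dotted line is the floor of 4. Levels can be compared within a panel but not between genes: Hey1, Jag1 and Notch3 were highest in bERKO hCG, Hey2 was lowest there, and Heyl was higher in both hCG groups.

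A receptor, a ligand and the HEY targets responded to hCG in bERKO cells, and the HEY targets moved in opposite directions. Hey1 rose by 3.97 (SE 0.59), Jag1 by 2.36 (SE 0.67), Notch3 by 2.27 (SE 0.50) and Heyl by 1.16 (SE 0.27), while Hey2 fell by 2.33 (SE 0.25), each passing in limma. In WT cells Heyl rose by 2.21 (SE 0.27) and Hey2 fell by 1.72 (SE 0.25). In all, 5 of 10 members passed in bERKO, 4 higher and 1 lower, where 19% of all genes passed (7.06% higher and 11.9% lower). In WT 2 of 10 passed, 1 higher and 1 lower, where 2.11% of all genes passed (0.737% higher and 1.37% lower). At an unadjusted p under 0.05 there were 5 members in bERKO, against 32.2% of all genes, and 3 in WT, against 17.1% of all genes. The hCG and PMSG arrays did not overlap for 6 members in bERKO, against 36.2% of all genes, and for 3 members in WT, against 24% of all genes. The median difference of the 10 members was 0.53 in bERKO, beside -0.19 over all genes, and 0.31 in WT, beside -0.08 over all genes.

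Levels are relative to all genes on the array, and the scaling sets where 0 lies. The median difference over all genes in the bERKO response was -0.05 without quantile normalization and -0.41 after median centring of every array, and in the WT response it was 0.03 and -0.22. Of the genes that passed, 37.2% were higher in the bERKO response (43% without quantile normalization, 24.3% with median centring) and 34.9% in the WT response (44.1% and 18.4%). Between bERKO and WT after hCG the share higher was 49.9% (38.9% and 66.2%). No member difference that passed changed direction under these scalings, though Heyl no longer passed in bERKO with median centring (0.83, adjusted p = 0.0786). In samples of many cells, fewer cells of a type and less RNA per cell cannot be told apart.

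The bERKO and WT responses share no array, and whether they differed was tested directly. In limma 0 of 10 members passed, where 1.32% of all genes passed (0.682% with a larger value in bERKO). Notch3, Hey1 and Heyl had an unadjusted p under 0.05, 3 of 10 members against 15.3% of all genes.

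**Figure D2:**
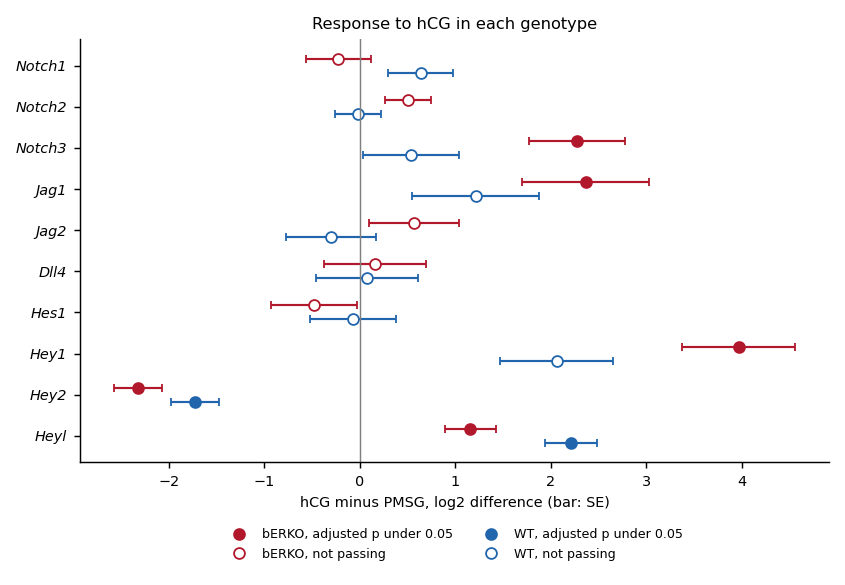
Response to hCG (hCG minus PMSG, difference of mean log2 levels, horizontal axis) of each gene in bERKO (red, upper) and WT cells (blue, lower), with SE bars; filled points passed in limma at an adjusted p under 0.05. Filled points lie at 3.97 for Hey1, 2.36 for Jag1, 2.27 for Notch3, 1.16 for Heyl and -2.33 for Hey2 in bERKO, and at 2.21 for Heyl and -1.72 for Hey2 in WT.

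Among the receptors, Notch2 was bright on every array and highest in bERKO cells after hCG. It had levels of 13.25, 13.32 and 13.21 in bERKO hCG, 12.09, 12.56 and 12.70 in WT hCG, 12.77, 12.81 and 12.70 in bERKO PMSG, and 12.67, 12.33 and 12.42 in WT PMSG. The bERKO hCG arrays lay above those of every other group, and the bERKO PMSG arrays lay above those of WT PMSG. Its deposited signals were 9669 to 10138 in bERKO hCG and 4274 to 5666 in WT hCG. The difference between bERKO and WT after hCG was 0.81 (SE 0.24) and did not pass in limma (adjusted p = 0.0964); it did at an offset of 64 (adjusted p = 0.0285), with dim genes left out (0.0365) and with array weights (0.048). A second, dimmer probe set of Notch2 had a response to hCG of 1.86 in bERKO (adjusted p = 0.00137) and 0.94 in WT (adjusted p = 0.117), where the brighter one had 0.50 (adjusted p = 0.177) and -0.02 (adjusted p = 0.976). Both probe sets were higher in bERKO than in WT after hCG, by 0.87 and 0.81. After PMSG alone the dimmer one had -0.04, with overlapping groups, and the brighter one 0.29 (adjusted p = 0.772 in limma).

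Notch3 was dim and highest in bERKO cells after hCG. Its levels were 7.06, 7.06 and 6.83 in bERKO hCG, 6.56, 5.87 and 4.58 in WT hCG, 4.60, 5.06 and 4.47 in bERKO PMSG, and 4.17, 5.72 and 5.51 in WT PMSG. The 3 bERKO hCG arrays lay above all others, with deposited signals of 106 to 121, against 11.3 to 80.2 in WT hCG, 3.75 to 18.3 in bERKO PMSG and 1.59 to 33.5 in WT PMSG. Its rise after hCG in bERKO passed in limma (adjusted p = 0.00905), and its size depended on the offset, from 1.23 at an offset of 64 to 3.40 at an offset of 1. The second probe set of Notch3 had a response of 0.56 in bERKO that did not pass (adjusted p = 0.464). Between bERKO and WT after hCG the difference was 1.32 (SE 0.50, adjusted p = 0.191).

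No difference passed for Notch1. It had levels of 8.42, 8.08 and 8.41 in bERKO hCG, 8.71, 8.32 and 8.73 in WT hCG, 8.17, 8.69 and 8.73 in bERKO PMSG, and 8.17, 8.48 and 7.21 in WT PMSG, and the groups overlapped in each comparison. The response to hCG was -0.23 (SE 0.34, adjusted p = 0.698) in bERKO and 0.64 (SE 0.34, adjusted p = 0.377) in WT, where PMSG replicate 3 was the lowest array of all. Its other probe set had differences of other sign in both genotype comparisons and in the bERKO response.

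Jag1 was the ligand that moved. Its levels were 11.35, 11.17 and 11.33 in bERKO hCG, 7.39, 9.65 and 10.40 in WT hCG, 8.06, 8.72 and 9.99 in bERKO PMSG, and 7.69, 7.90 and 8.22 in WT PMSG. The bERKO hCG arrays lay close together above all others, while the WT hCG arrays were far apart, with the lowest value on replicate 1, the array with the highest Gapdh ratio. The rise after hCG in bERKO, 2.36 (SE 0.67), passed in limma (adjusted p = 0.0286) and so did that of the other probe sets of the gene, at 3.18 (adjusted p = 0.00793) and 2.32 (adjusted p = 0.00441). With either replicate 1 or 2 of bERKO PMSG left out, or any 1 bERKO hCG array, the brightest probe set no longer passed (differences of 1.93 to 2.42, adjusted p from 0.0665 to 0.0964); without both arrays of high Gapdh ratio it rose by 2.90 (adjusted p = 0.000626). In WT the response was 1.21 (SE 0.67, adjusted p = 0.394), and 2.09 (adjusted p = 0.0106) without those 2 arrays. Between bERKO and WT after hCG, Jag1 differed by 2.14 (SE 0.67, adjusted p = 0.11), and by 2.42 (adjusted p = 0.0824) and 2.15 (adjusted p = 0.0288) by the other probe sets. Without the 2 arrays of high Gapdh ratio the genotype difference was 1.26 (adjusted p = 0.0911), and without WT hCG replicate 3 it was 2.77 (adjusted p = 0.0482).

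Jag2 and Dll4 stayed dim and overlapped between groups. Jag2, a second Jagged ligand, had levels of 6.16, 7.07 and 5.69 in bERKO hCG, 6.93, 6.28 and 5.83 in WT hCG, 5.65, 6.63 and 4.95 in bERKO PMSG, and 6.75, 6.81 and 6.39 in WT PMSG. Dll4, a Delta-like ligand best known from sprouting vessels, had levels of 5.36, 5.82 and 5.92 in bERKO hCG, 5.70, 4.48 and 5.24 in WT hCG, 6.61, 5.40 and 4.61 in bERKO PMSG, and 4.17, 5.27 and 5.76 in WT PMSG. No comparison passed for either gene; the largest difference of Jag2 was -0.90 (SE 0.47, bERKO minus WT after PMSG, adjusted p = 0.583) and that of Dll4 was 0.56 (SE 0.54, bERKO minus WT after hCG, adjusted p = 0.672). Their deposited signals ran from 8.20 to 122 and from 1.64 to 68.4, which limits the size of change that could be seen.

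Hey1, a repressor that Notch and BMP signals are known to induce, had the largest rise of the 10 members. It had levels of 12.16, 12.47 and 13.38 in bERKO hCG, 9.50, 11.12 and 11.17 in WT hCG, 9.22, 9.24 and 7.63 in bERKO PMSG, and 9.18, 7.75 and 8.68 in WT PMSG. The hCG arrays lay above the PMSG arrays in both genotypes, and the bERKO hCG arrays above the WT hCG arrays. In deposited signal, the range was 4604 to 10889 in bERKO hCG, 712 to 2239 in WT hCG, 122 to 584 in bERKO PMSG and 204 to 576 in WT PMSG. The bERKO response of 3.97, a factor of 15.6 on the offset scale, passed in limma (adjusted p = 0.00113) and under all 22 alternatives, from 3.43 to 4.24. The WT response, 2.06 (SE 0.59), did not pass in limma (adjusted p = 0.0982). It passed in 4 of 22 alternatives, with adjusted p from 0.00947 to 0.277. Among these 4 was the fit without WT hCG replicate 1, at 2.61 (adjusted p = 0.0461). After hCG, bERKO exceeded WT by 2.07 (SE 0.59, adjusted p = 0.085), and by 1.52 (adjusted p = 0.14) without the 2 arrays of high Gapdh ratio; of 22 alternatives 1 passed, median centring at 2.26 (adjusted p = 0.0466). The responses themselves differed by 1.91 (SE 0.84, adjusted p = 0.306), which did not pass.

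Hey2, the closest relative of Hey1, moved the other way. Its levels were 10.07, 10.08 and 10.07 in bERKO hCG, 11.24, 10.75 and 11.27 in WT hCG, 12.15, 12.36 and 12.68 in bERKO PMSG, and 12.93, 12.63 and 12.87 in WT PMSG. No hCG array reached a PMSG array in either genotype, and after hCG every bERKO array lay below every WT array. The difference was -2.33 in bERKO (adjusted p = 0.000253), a ratio of 0.2 on the offset scale, and -1.72 in WT (adjusted p = 0.00929), a ratio of 0.303, both passing in limma. The WT call was lost without WT hCG replicate 2 (-1.56, adjusted p = 0.0516) and in a fit on the WT arrays alone (adjusted p = 0.0625). The difference between bERKO and WT after hCG, -1.01 (SE 0.25), stood at an adjusted p of 0.052 in limma and passed in 5 of 22 alternatives, with adjusted p from 0.0174 to 0.218. The responses differed by -0.60 (SE 0.35, adjusted p = 0.456), which did not pass.

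Heyl, the HEY family member known from vascular smooth muscle and also from Notch responses elsewhere, rose in both genotypes. It had levels of 10.46, 10.15 and 10.30 in bERKO hCG, 10.35, 10.79 and 10.51 in WT hCG, 8.76, 9.37 and 9.31 in bERKO PMSG, and 8.65, 8.14 and 8.23 in WT PMSG. The hCG groups overlapped each other and lay above both PMSG groups, and the bERKO PMSG arrays lay above the WT PMSG arrays. The rise in bERKO, 1.16 (adjusted p = 0.0117), and in WT, 2.21 (adjusted p = 0.00513), passed in limma. The other probe sets of Heyl had responses of 0.38 (adjusted p = 0.666) and 1.39 (adjusted p = 0.0659) in bERKO and 2.03 (adjusted p = 0.0683) and 1.82 (adjusted p = 0.0776) in WT, none passing, and the bERKO call was also lost with the mean of all probe sets (0.98, adjusted p = 0.0927). After PMSG alone, bERKO exceeded WT by 0.81 (SE 0.27), with an unadjusted p of 0.0113 that did not pass (adjusted p = 0.376). The responses differed by -1.06 (SE 0.38, adjusted p = 0.212), with the smaller one in bERKO.

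Hes1, the canonical Notch target of many tissues, showed no such pattern. Its levels of 5.64, 5.95 and 6.88 in bERKO hCG, 6.30, 6.68 and 5.33 in WT hCG, 6.54, 6.61 and 6.76 in bERKO PMSG, and 6.19, 6.87 and 5.45 in WT PMSG overlapped in every comparison. The largest difference was -0.48 (SE 0.45) for hCG against PMSG in bERKO (adjusted p = 0.509). It had 1 probe set, with deposited signals from 25.5 to 111.

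The genotypes were compared directly under each treatment, before and after the ovulatory signal. Markers of other cells also differed between these groups, as given further on, and their part in the differences below was not tested. After hCG, Jag1, Hey1, Notch3 and Notch2 had higher levels on all bERKO arrays than on all WT arrays, and Hey2 had lower ones. These 5 of 10 members did not overlap, against 24.5% of all genes, and the same 5 had an unadjusted p under 0.05, against 17.5% of all genes. In limma 0 of 10 passed, where 3.17% of all genes passed (1.58% higher in bERKO). After PMSG alone 0 of 10 passed in limma, where 0.011% of all genes passed, and Heyl was the 1 member with an unadjusted p under 0.05, against 9.54% of all genes. The groups did not overlap for Heyl and Notch2, both higher in bERKO, against 14.7% of all genes. By the other probe sets of these genes the groups overlapped, and that of Notch2 had a difference of -0.04. The comparison after hCG and the bERKO response to hCG share the bERKO hCG arrays, so their values for Jag1, Hey1, Notch3 and Hey2 are not independent.

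**Figure D3:**
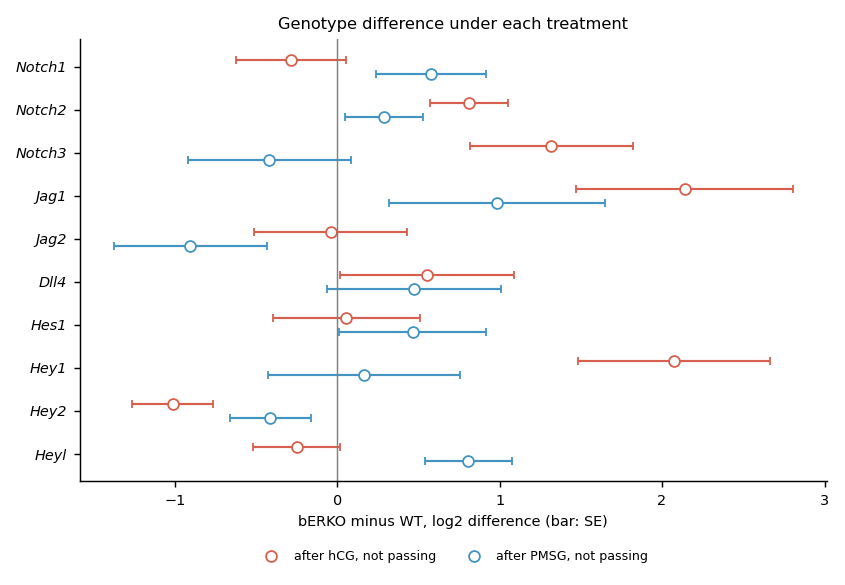
Genotype difference (bERKO minus WT, difference of mean log2 levels, horizontal axis) of each gene after hCG (red, upper) and after PMSG alone (blue, lower), with SE bars; open points did not pass in limma. After hCG, Jag1 at 2.14, Hey1 at 2.07 and Notch3 at 1.32 lie to the right and Hey2 at -1.01 to the left, and no point is filled.

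Other genes of the pathway were followed in a list of 56, of which 52 were measured: other receptors and ligands, enzymes that modify or cleave the receptor, trafficking proteins, the nuclear complex, corepressors and other targets. In bERKO cells 7 of 52 rose and 5 fell after hCG, beside 7.06% higher and 11.9% lower among all genes. In WT cells 2 of 52 rose and 0 fell, beside 0.737% higher and 1.37% lower among all genes. The list's median difference was -0.08 in bERKO, beside -0.19 over all genes, and -0.11 in WT, beside -0.08 over all genes. Between bERKO and WT, 1 of 52 was higher after hCG, beside 1.58% of all genes, and 0 of 52 passed after PMSG, beside 0.011% of all genes. In the difference of responses 0 of 52 passed, beside 1.32% of all genes.

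Of 7 measured genes of the nuclear complex, 1 rose and 1 fell after hCG in bERKO, where 19% of all genes passed, and the other 5 did not pass. Rbpj, the DNA-binding partner of every Notch receptor, fell by 1.54 (SE 0.30, adjusted p = 0.00452 in limma) after hCG in bERKO. It had levels of 9.62, 9.82 and 9.01 in bERKO hCG, 10.54, 10.91 and 10.49 in WT hCG, 11.40, 10.75 and 10.91 in bERKO PMSG, and 10.78, 10.88 and 11.25 in WT PMSG. The bERKO hCG arrays lay below all others; the genotype difference after hCG, -1.16 (SE 0.30), had an adjusted p of 0.0589, and the other 2 probe sets of Rbpj had -0.72 and -0.66 in the bERKO response. Those probe sets had -0.88 and 0.20 in the genotype difference after hCG and 0.44 and -0.70 in the WT response, so the sign of the genotype difference depends on the probe set. Maml2, a Mastermind coactivator, rose by 2.07 (SE 0.33, adjusted p = 0.00167) in bERKO and by 2.19 (SE 0.33, adjusted p = 0.0102) in WT. Its levels were 8.52, 8.55 and 8.42 in bERKO hCG, 7.70, 8.55 and 8.59 in WT hCG, 6.72, 5.93 and 6.62 in bERKO PMSG, and 5.70, 6.49 and 6.08 in WT PMSG, so that hCG and PMSG arrays were apart in both genotypes. Tle3, a Groucho-family corepressor that HES proteins are known to recruit, rose by 2.58 (SE 0.48, adjusted p = 0.00348 in limma) in bERKO. Its WT response was 0.43, not passing. The other 3 probe sets of Tle3 had 2.58, 2.92 and 2.22 in bERKO and 2.16, 1.34 and 0.34 in WT, so its probe sets disagree on the WT response; the one with 2.16 is nearly as bright as the one used (mean levels of 9.01 and 9.32).

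Among 8 other target genes 2 rose in bERKO after hCG, Nrarp and Ccnd1, and of 10 trafficking genes 1 rose and 1 fell. Among all genes, 7.06% were higher and 11.9% lower in that response. Nrarp, a Notch target whose product limits the active nuclear complex, had levels of 8.80, 7.53 and 6.69 in bERKO hCG, 6.05, 4.40 and 5.26 in WT hCG, 4.98, 4.79 and 5.49 in bERKO PMSG, and 5.76, 5.06 and 5.88 in WT PMSG. It was the 1 listed gene higher in bERKO than in WT after hCG (2.43, SE 0.54, adjusted p = 0.0356 in limma), and it rose by 2.59 (adjusted p = 0.00645) in the bERKO response; its second probe set, near the floor, had differences of 0.08 and 0.45. Dtx1, a Deltex ubiquitin ligase that acts on Notch, rose by 5.04 (SE 0.63, adjusted p = 0.000469) in bERKO, where its levels were 10.71, 10.80 and 9.63 after hCG and 5.62, 4.20 and 6.21 after PMSG. In WT its levels were 8.30, 8.84 and 6.49 after hCG and 5.30, 5.79 and 5.54 after PMSG, a difference of 2.34 (SE 0.63, adjusted p = 0.0803) that did not pass, and the second Dtx1 probe set had 1.90 in bERKO and 0.51 in WT. Dner, a transmembrane protein with Delta-like repeats, rose by 2.44 (adjusted p = 0.00195) in bERKO and by 2.30 (adjusted p = 0.0191) in WT, and its second probe set had 2.66 in bERKO and 1.25 in WT. Dll3, a divergent Delta-like protein, rose by 1.59 (adjusted p = 0.0252) and the cyclin Ccnd1 by 1.17 (adjusted p = 0.0359), both in bERKO. The other probe sets of Ccnd1, which are dimmer, had 2.08 and 0.11.

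Besides Rbpj, 4 listed genes fell after hCG in bERKO. Psen2, a catalytic subunit of gamma-secretase, had a difference of -1.95 (adjusted p = 0.0158) and Aph1b, another subunit, one of -1.46 (adjusted p = 0.0411), which makes 2 of the 8 measured proteolysis genes, beside 11.9% lower among all genes. The second probe set of Psen2 had -1.32. Rfng, a Fringe glycosyltransferase, fell by 1.63 (adjusted p = 0.036), and Dtx2, a second Deltex protein, by 1.38 (adjusted p = 0.0404). The second probe set of Aph1b had 0.08 in that response, and those of Rfng and Dtx2 had -0.21 and -0.38, all nearer to 0. Within bERKO PMSG, Aph1b (10.21), Rfng (9.88) and Dtx2 (10.50) were highest on replicate 3. That array had a Gapdh ratio of 23.74 and the highest mean of oocyte markers (10.13). Its part in the fall of these genes was not tested. Where no listed gene passed, the smallest p-values belonged to Fbxw7, which targets active Notch for breakdown (-1.01, adjusted p = 0.299), and Pofut1, which adds fucose to the receptor (-1.15, adjusted p = 0.415), for bERKO minus WT after PMSG. In the difference of responses they belonged to Nrarp (2.92, adjusted p = 0.0866) and Tle3 (2.15, adjusted p = 0.15); the second probe set of Nrarp had 0.18, and the others of Tle3 had 0.42, 1.58 and 1.88.

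**Figure D4:**
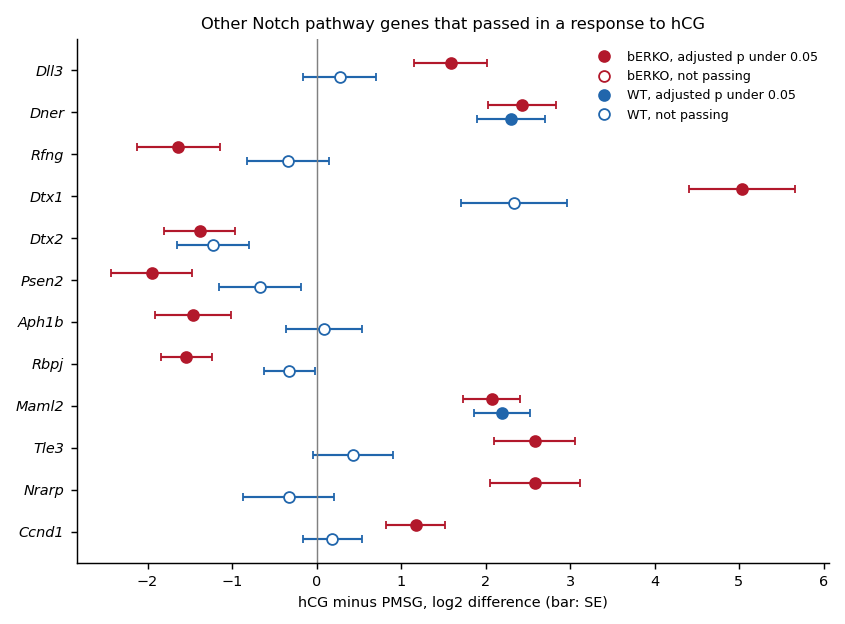
Response to hCG (hCG minus PMSG, difference of mean log2 levels, horizontal axis) in bERKO (red, upper) and WT (blue, lower) of the 12 other pathway genes that passed in either genotype, with SE bars and filled points for an adjusted p under 0.05 in limma. Dtx1 at 5.04 is the farthest point, and in WT only Dner at 2.30 and Maml2 at 2.19 are filled.

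Markers of other cells moved with these results. On the bERKO hCG arrays the mean level of 14 endothelial markers was 6.65 to 7.60, against 5.51 to 5.81 in WT hCG, 5.49 to 5.90 in bERKO PMSG and 5.65 to 6.30 in WT PMSG. The 11 mural cell markers averaged 7.10 to 7.84 in bERKO hCG, 5.73 to 6.37 in WT hCG, 5.58 to 6.51 in bERKO PMSG and 5.20 to 7.07 in WT PMSG. After hCG, 4 of 14 endothelial markers (Cdh5, Emcn, Kdr and Flt1, by 1.56 to 3.04) and 1 of 11 mural markers (Kcnj8) were higher in bERKO than in WT, beside 1.58% of all genes. In the bERKO response 5 of 14 endothelial markers rose (the same 4 and Pecam1, by 2.04 to 3.62) and 5 of 11 mural markers (Pdgfrb, Rgs5, Kcnj8, Abcc9 and Mcam, by 2.15 to 4.61), beside 7.06% of all genes. In the WT response 0 of 14 and 0 of 11 passed, beside 2.11% of all genes. Not all markers of these lists were high: Vwf, of endothelium, was at 5.70, 4.31 and 5.45 and Cnn1, of smooth muscle, at 4.43, 4.20 and 4.22 in bERKO hCG, near the floor of 4 on some arrays. Nor did all rise in the bERKO response. The mural markers Des (-1.17), Cnn1 (-0.59) and Myh11 (-0.18) and the endothelial Vwf (-0.42) had lower means after hCG, none passing in limma. Stromal markers averaged 8.01 to 10.10 in bERKO hCG, 6.72 to 7.93 in WT hCG, 6.34 to 8.31 in bERKO PMSG and 6.10 to 8.58 in WT PMSG over 6 genes. Leukocyte markers averaged 6.17 to 7.27 in bERKO hCG, 5.71 to 5.83 in WT hCG, 5.38 to 6.30 in bERKO PMSG and 5.33 to 6.18 in WT PMSG over 12 genes. In both lists the bERKO hCG range overlapped the PMSG ranges, through replicate 3. Between the genotypes after hCG, 0 of 6 stromal and 0 of 12 leukocyte markers were higher in bERKO, beside 1.58% of all genes. Of the stromal list 1 (Col1a2) and of the leukocyte list 2 (Cd52 and Lyz2) rose in the bERKO response, beside 7.06% of all genes. The leukocyte median there was 0.89, though Adgre1 (-0.25) and C1qa (-0.50) had lower means after hCG, neither passing in limma. Theca markers (4 genes) averaged 7.64 to 7.84 in bERKO hCG and 7.54 to 7.92 in WT hCG. After PMSG alone they averaged 7.11 to 7.35 in bERKO and 6.73 to 7.56 in WT. In the bERKO response 1 of 4 rose (Hhip) and 1 fell (Ptch1), beside 7.06% higher and 11.9% lower among all genes. Granulosa markers averaged 11.80 to 12.07 in bERKO hCG and 12.53 to 12.86 in WT hCG. After hCG, 3 of 10 (Fshr, Foxl2 and Inhbb) were lower in bERKO than in WT, beside 1.59% of all genes. In the bERKO response 4 of 10 granulosa markers fell, beside 11.9% of all genes.

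Within the bERKO hCG group, replicate 3 had the lowest endothelial, mural, stromal and leukocyte means. On that array Hey1 was the highest of the group (13.38, against 12.16 and 12.47), Jag1 stood at 11.33 between the other 2 arrays, and Notch3 was at 6.83, slightly below them. Nrarp (6.69), Dtx1 (9.63) and Rbpj (9.01) were lowest of the group there. Notch4, the receptor known chiefly from endothelium, was at 7.57, 7.79 and 5.94 in bERKO hCG and at 4.26, 5.78 and 5.62 in WT hCG, with its lowest bERKO hCG value on the same array. The part of these cells in the levels of Notch3, Jag1, Hey1, Nrarp and Dtx1 was not tested. Oocyte markers (10 genes) averaged 6.60 to 7.62 in bERKO hCG, 5.85 to 6.65 in WT hCG, 8.67 to 10.13 in bERKO PMSG and 5.65 to 8.34 in WT PMSG. After PMSG alone their median genotype difference was 2.56, though 0 of 10 passed in limma, beside 0.011% of all genes. In the bERKO response 5 of 10 fell, beside 11.9% of all genes. The part of oocyte transcripts in the levels of the members was not tested. Jag1, which mouse oocytes are also known to make, was highest within bERKO PMSG on replicate 3 (9.99), the array with the highest oocyte mean and a Gapdh ratio of 23.74.

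**Figure D5:**
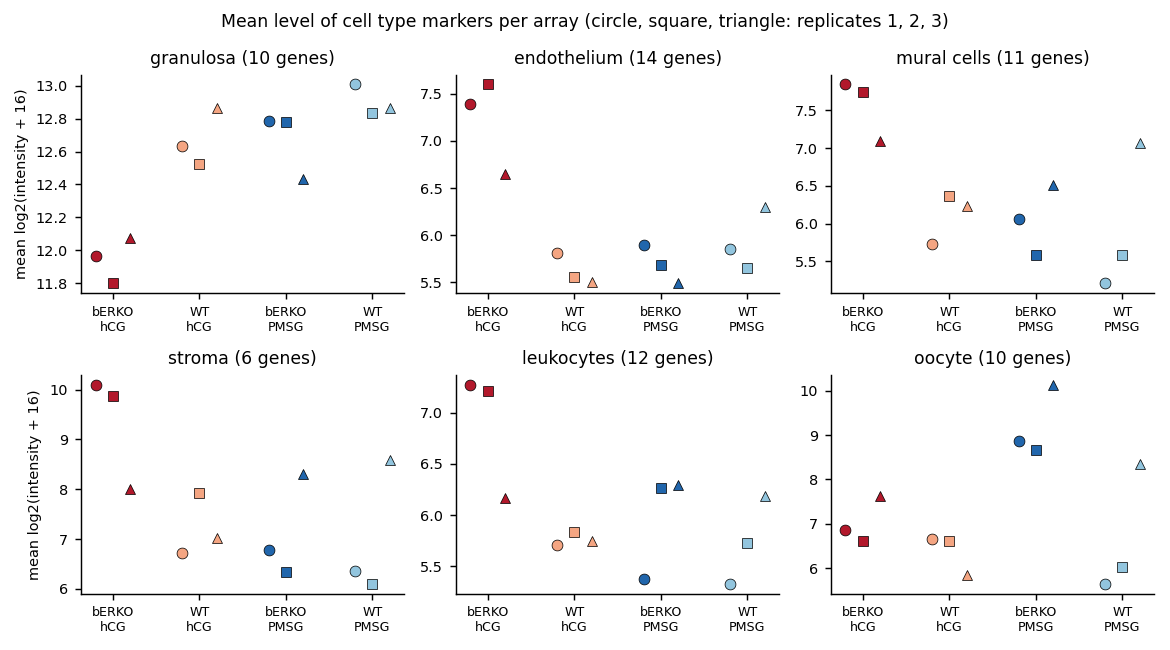
Mean level, as log2(intensity + 16), of 6 marker lists on each array, with circle, square and triangle for replicates 1, 2 and 3; the vertical axes differ between panels and do not start at 0. The endothelial mean was 6.65 to 7.60 on bERKO hCG arrays and 5.51 to 5.81 on WT hCG arrays, and the granulosa mean was 11.80 to 12.07 on bERKO hCG arrays and 12.53 to 12.86 on WT hCG arrays.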

How the data were processed

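Transcripts were measured on 12 one-colour mouse arrays from 25 ng of amplified total RNA, per the labels' protocols. The authors deposited a linear intensity for each probe set, scaled so that every array has a 2% trimmed mean of 500, as the values show; the sources used here do not name the software. Of 45101 probe sets, 64 controls were left out. Genes were named from the platform annotation: 34945 probe sets named 1 gene, 932 several and 9160 were not listed. Values were taken as log2(intensity + 16), because the array medians spanned 0.98 on that scale, and quantile normalized. Group means were fitted with limma 3.58.1 (R 4.3.3) over all 12 arrays, without a replicate block, with moderated two-sided tests and Benjamini-Hochberg adjustment over 18193 genes in each of the 5 comparisons. Figures used Python 3.11.15 and matplotlib 3.10.9. The fit was run on simulated data with equal noise on every array and shifts added to brighter genes only. That run does not cover dim genes or arrays of poor RNA. The members and gene lists were chosen with earlier results of these data known.

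The text names all members, the listed pathway genes that passed (or, where none passed, the 2 with the smallest p), Esr2, markers of lists that moved with a member, and the 3 genes most like each member that passed. Notch4, Amh, Vwf, Cnn1 and the other single markers were chosen after their values were seen. Intensities carry no counts, so the number of arrays limits the precision. The alternatives changed the scaling, the offset, the filter, the probe set, the arrays, the weights and the replicate block. No pair of arrays was identical.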

Additional observations from a re-analysis of the deposited data

How the results depend on the processing

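Each alternative changed 1 choice, and arrays were also left out one at a time. Of the 7 hCG responses of members that passed, Hey1 and Hey2 in bERKO passed in all 22 alternatives, and no difference that passed reversed under any alternative run. The count of members passing after PMSG and in the difference of responses was 0 throughout. For bERKO minus WT after hCG it was 1 with median centring, 2 at an offset of 64, 2 with dim genes left out, 2 with the mean of all probe sets and 3 with array weights (0 to 1 with 1 array left out). In the WT response it was 3 with dim genes left out, 1 in the fit on 2 groups, 4 with array weights and 4 without both arrays of high Gapdh ratio (1 to 3 with 1 array left out), and in the bERKO response 4 to 5 with 1 array left out. Over all genes, the 2 calls after PMSG became 7 as deposited, 5 with median centring, 0 at an offset of 1, 12 at 64, 5 without dim genes, 1 with the probe set mean, 1 in the 2-group fit and 7 without both arrays (0 to 26 with 1 array left out). The 577 after hCG became 225 at an offset of 1, 885 at 64, 257 in the 2-group fit, 1241 with array weights and 261 without both arrays (141 to 688). The 384 of the WT response became 236 as deposited, 139 and 872 at offsets of 1 and 64, 930 without dim genes, 34 in the 2-group fit, 1602 with array weights and 858 without both arrays (49 to 583). The 3455 of the bERKO response ranged from 2319 to 3848 with 1 array left out. The 241 of the difference became 88 and 451 at offsets of 1 and 64, 375 without dim genes, 426 with array weights and 121 without both arrays (82 to 411). Whether the replicate numbers pair the arrays cannot be settled with 3 arrays per group. Of 18 same-numbered pairs 1 correlated above 0.1 (-0.08 to 0.12), where pairs of other numbers had -0.12 to 0.07. In all, 6 of 12 arrays correlated best with their own number. With the replicate block, 165 genes passed in the WT response, 130 in the difference, 412 for bERKO minus WT after hCG, 3149 in the bERKO response and 2 after PMSG, and no member call changed.

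Differences that reversed had not passed in any setting named here, and the cause was not tested. As deposited, Hey1 had -0.0624 (PMSG genotype difference) and Hes1 -0.0616 (hCG genotype difference) and 0.19 (WT response). With median centring, Jag2 had 0.0266 (hCG genotype difference). With the probe set mean, the hCG genotype difference was 0.0041 for Notch1 and 0.0865 for Jag2, the WT response 0.46 for Notch2 and -0.0944 for Dll4, and the bERKO response 0.29 for Notch1 and -0.0735 for Jag2. With array weights, the hCG genotype difference was 0.27 for Jag2 and -0.23 for Hes1, the WT response 0.0823 for Notch2, -0.24 for Dll4 and 0.0583 for Hes1, and the bERKO response -0.0923 for Dll4. Without both arrays, Jag2 had 0.25 (hCG genotype difference), Notch2 0.16 and Dll4 -0.21 (WT response), and Dll4 -0.31 (bERKO response) and -0.10 (difference of responses). By another probe set, Notch1 had -0.10, 0.29, 0.81 and 0.39 (PMSG and hCG genotype differences, bERKO response, difference of responses), Notch2 -0.0418 (PMSG genotype difference) and 0.94 (WT response), Notch3 0.33 (PMSG genotype difference), Jag2 0.0059, 0.21 and -0.71 (PMSG and hCG genotype differences, bERKO response), Dll4 -0.0179, -0.26 and -0.069 (PMSG genotype difference, WT and bERKO responses) and Heyl 0.30 (hCG genotype difference). With 1 array left out, signs varied for the PMSG genotype difference of Dll4 (-0.0593 to 0.94) and Hey1 (-0.23 to 0.70), the hCG genotype difference of Jag2 (-0.42 to 0.27) and Hes1 (-0.33 to 0.34), the WT response of Notch2 (-0.15 to 0.16), Dll4 (-0.37 to 0.42) and Hes1 (-0.43 to 0.32), the bERKO response of Dll4 (-0.31 to 0.69) and the difference of responses of Dll4 (-0.38 to 0.62). Dim signals limit Notch3, Dll4, Jag2 and Hes1, and Notch3 is not among the genes tested when dim genes are left out.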

Other observations

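Genes with a course most like that of each member that passed were named by the root mean square difference between their 12 values and those of the member, each centred on its own mean; this describes 12 arrays and says nothing of shared function. For Hey2 they were Psmc3ip (0.25), Tmtc4 (0.28) and the myosin Myo6 (0.29), beside a spread of 1.10 of Hey2 around its own mean. Psmc3ip had a response to hCG of -2.33 in bERKO and -1.82 in WT, and the differences of Myo6 were -2.67 and -1.60, all passing in limma. For Heyl they were Ankrd52 (0.28), the scavenger receptor Scara5 (0.30) and Gm20199 (0.32), beside 0.92. The response of Scara5 was 1.03 in bERKO (adjusted p = 0.0636 in limma), not passing, and 2.74 in WT (adjusted p = 0.00662).

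For Hey1 they were 9330111N05Rik (0.50), the hormone resistin, Retn (0.54), and the cyclic AMP phosphodiesterase Pde4b (0.55), beside 1.81. Pde4b rose by 4.02 in bERKO (adjusted p = 0.000159 in limma), and its WT response was 1.25 (adjusted p = 0.118). For Jag1 they were Ggct (0.45), Pitpnc1 (0.47) and Garem1 (0.49), beside 1.44, and for Notch3 the transcription factor Scx (0.46), Qpct (0.48) and Rasgrp2 (0.49), beside 1.02. Ggct rose by 2.92 in bERKO (adjusted p = 0.0025 in limma), with a WT response of 0.93 (adjusted p = 0.389).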
